A study of Mus musculus with 12 samples.

Results

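Mammary tumors of hyperglycemic mice were set against tumor-free mammary glands of hyperglycemic mice, 3 Illumina BeadChip arrays each, to describe which genes separate the tissues when both come from animals with high blood glucose. The tumors came from PyMT/PANIC mice and the glands from PANIC-ATTAC mice. Both kinds of animal were female FVB mice aged 10 weeks and both carried the PANIC transgene, which ablates the insulin-producing beta cells of the pancreas when it is triggered. The tumor mice carried the PyMT transgene as well, so the comparison joins the tissue and that transgene. The study held 4 groups of 3 arrays, the other groups being tumors of PyMT mice and glands of WT mice, both labelled as controls. Of the 12 arrays, 6 entered the main comparison. Of 45281 probes, 18095 entered the test because all 3 arrays of the tumors, all 3 of the glands, or all 6 gave a detection p-value under 0.01. A single gene symbol was listed for 15543 of these probes, and they covered 10125 of the 19057 genes named on the array, while 2552 tested probes had none.

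As background, a virgin mouse mammary gland is mostly a pad of fat, crossed by a sparse tree of epithelial ducts with a luminal and a basal (myoepithelial) layer, and held together by fibroblasts and blood vessels. Pieces of the pad can include lymph node, muscle and skin-derived structures. Polyoma middle T antigen binds Src-family kinases and recruits adaptors and phosphatidylinositol 3-kinase, and in mammary epithelium it drives multifocal tumors of luminal cells that fill the fat pad. Insulin normally keeps fat cells storing triglyceride and restrains its release, so the loss of beta cells acts on the fat pad as well as on glucose. The labels do not name the promoter that drives either transgene, the dose that triggers ablation or the blood glucose reached, nor do they say that replicates are different animals. The p-values therefore rest on a spread between samples that may be only technical.

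Levels are log2 intensities after background correction and quantile normalization over the 6 arrays, differences are hyperglycemic tumor minus hyperglycemic gland, errors are standard errors (SE) unless SD is written, and adjusted p-values come from limma with Benjamini-Hochberg adjustment over all 18095 probes. A gene was called higher or lower at an adjusted p under 0.05, on the probe with its highest mean level. The files allowed 17423 to 17812 detected probes per tumor array and 17827 to 18489 per gland array, with raw medians of 57.6 to 58.2 in tumors and 55.9 to 58.1 in glands. Pearson's r across the tested probes lay between 0.986 and 0.990 among tumors, between 0.968 and 0.984 among glands and between 0.843 and 0.900 across tissues. The median SD over 3 arrays was 0.134 in tumors and 0.156 in glands, and it exceeded the standard error over beads of the same probe for 86.8% of probes in tumors and 89.8% in glands. All tumors were hybridised on a BeadChip of their own and all glands on another, 6 arrays each, and every difference below is therefore one of BeadChip as well as of tissue; these cannot be told apart.

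Of the 6 arrays, 3 stood apart from their group in parts of their profile, and these are named before the results they touch. Hyperglycemic gland 2 had the highest brown adipocyte markers and the lowest levels of many epithelial genes, hyperglycemic gland 3 had the highest skeletal muscle, skin and interferon genes, and hyperglycemic tumor 3 had the highest muscle genes among tumors. Among the controls, the gland labelled WT control-1 had fewer beads per probe than any other array, 37.1 against 43.8 to 44.7 elsewhere. It also read nearer to the tumors: its mean level over the cell cycle list was 8.884, against 7.401 and 7.419 in the other control glands and 8.999 to 9.296 in control tumors, and over the DNA replication list 8.659, against 7.383 and 7.432 in the other control glands. It was set aside with this in view, which widens the tissue difference in controls for such lists, so every control value given without it depends on that choice. The cause was not tested. Control list medians are given with and without it, while the overlap of called probes is given without it.

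The tissues differed over much of the genome. Of 18095 probes, 9865 (54.5%) passed the threshold, 5590 (30.9%) higher and 4275 (23.6%) lower in hyperglycemic tumors. Over genes, with 1 probe each, 3080 (30.4%) were higher and 2613 (25.8%) lower. Large differences leaned the other way: at 2-fold or more, 1573 probes (8.69%) were higher and 2337 (12.9%) lower, and at 4-fold or more 337 (1.86%) were higher and 670 (3.7%) lower. The 4-fold counts depended on the background correction, with 185 higher and 353 lower at an offset of 50 in place of 16, and 189 and 361 with the authors' processed values. The 3 tumor and 3 gland levels did not overlap for 11636 probes (64.3%). The split of directions depended on the scaling: 56.7% of called probes were higher after quantile normalization, 61.4% after median scaling and 43.8% after cyclic loess, which shifted the median difference of all probes to 0.176 and -0.019, against 0.116 after quantile normalization. Leaving out 1 array left between 8076 and 9451 probes past the threshold, 9238 without hyperglycemic gland 2 and 9451 without hyperglycemic gland 3. A 95% confidence interval reached a median of 1.25-fold to either side of a difference.

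**Figure D1:**
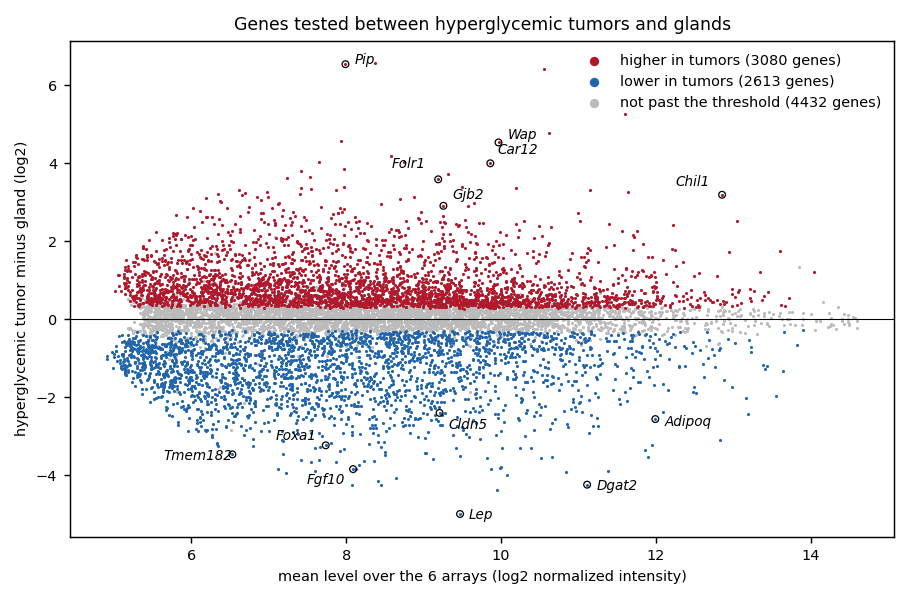
Difference between hyperglycemic tumors and hyperglycemic glands (vertical axis, log2) against the mean level over the 6 arrays (horizontal axis, log2 normalized intensity), 1 point per gene. Red points are the 3080 genes higher in tumors, blue points the 2613 genes lower and grey points the genes not past the threshold; circled genes are described in the text, with Pip at 6.54 and Lep at -5.00 near the extremes.

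The 15 genes with the largest excess in hyperglycemic tumors were taken from called genes detected on all 6 arrays whose groups did not overlap. They were of several kinds, and Car12 was first. Car12 (chromosome 9), a carbonic anhydrase of the cell surface, read 12.10, 11.68 and 11.80 in hyperglycemic tumors 1 to 3, against 8.27, 6.11 and 9.21 in hyperglycemic glands 1 to 3. Gland 2 was the lowest, and the difference of 4.0 ± 0.68 corresponded to 16-fold (adjusted p = 0.0018). Folr1 (chromosome 7), the folate receptor of epithelia, read 11.10, 10.98 and 10.87 in tumors, against 8.19, 5.75 and 8.25 in glands, a difference of 3.59 ± 0.60 (12-fold, adjusted p = 0.00176). The same array, gland 2, was again lowest, and this held for Bricd5 (3.73 ± 0.61), the retinal cadherin Cdhr1 (3.40 ± 0.58), the sodium-coupled monocarboxylate transporter Slc5a8 (3.13 ± 0.56), the intracellular chloride channel protein Clic6 (3.27 ± 0.73), Dkkl1 (3.08 ± 0.71) and Cpsf4l (2.95 ± 0.51). The water channel Aqp5, known from salivary and lacrimal glands, read 12.83, 12.69 and 12.86 in tumors, against 9.76, 8.18 and 10.54 in glands (3.30 ± 0.51, adjusted p = 0.00116). Chil1, a secreted chitinase-like protein, was near the top of the scale in tumors at 14.54, 14.46 and 14.34, against 12.31, 8.74 and 12.73 in glands (3.19 ± 0.92, adjusted p = 0.0206), and its call was lost when any 1 tumor array was left out, with adjusted p-values up to 0.0871.

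For the other genes of this group the glands lay closer together. Gjb2 (chromosome 14), the gap junction protein connexin 26, read 10.90, 10.62 and 10.60 in hyperglycemic tumors, against 7.85, 7.79 and 7.77 in hyperglycemic glands. Its glands lay within an SD of 0.04, the groups were far apart, and the difference was 2.91 ± 0.12 (7.5-fold, adjusted p = 4.42e-05). Rap1gap, which switches off the small GTPase Rap1, differed by 2.98 ± 0.21, and Kcnn4, a calcium-activated potassium channel, by 2.90 ± 0.20. Arfgef3 differed by 3.40 ± 0.27 and Cited4, a partner of the coactivators CBP and p300, by 3.35 ± 0.47. Gland 2 was the lowest for these 4 genes too, and where any of the 15 genes had further tested probes, all of those were called higher.

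Larger differences still were found for genes detected on all 3 hyperglycemic tumors and on only 1 or 2 hyperglycemic glands; those named here were chosen after their values were seen, and their gland means include arrays at background. These genes entered the test through the tumors alone, so no p-value is given for them. Mup5, a major urinary protein, read 13.22, 9.24 and 12.51 in tumors, against 4.46, 4.86 and 5.96 in glands (6.56 ± 0.95). Of these glands, 1 passed detection. Mup genes are near-identical copies, and which of them the probe reads is uncertain. 2310057J18Rik read 13.58, 13.49 and 14.21 in tumors, against 8.2, 4.38 and 9.44 in glands (6.42 ± 1.12). Scgb2b27, a secretoglobin also of a family of close copies, read 14.33, 14.11 and 14.26 in tumors, against 10.17, 4.79 and 11.97 in glands (5.26 ± 1.56). Gland 2 was at background for both, while glands 1 and 3 were below every tumor. Since detection in tumors chose these genes, their calls add nothing to the levels given. The call of Scgb2b27 was lost without any 1 tumor, and that of Saa1 without tumor 1 or 2. The acute phase protein Saa1 (4.78 ± 1.39), neuropeptide Y or Npy (4.57 ± 0.77), the tight junction protein Cldn2 (4.18 ± 0.76), Bhlha15, a transcription factor of secretory cells (4.04 ± 0.70), Dcpp1, a secretory protein named for the parotid gland (4.04 ± 0.84), and Elapor1 (3.84 ± 0.59) followed, each with gland 2 lowest.

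Some probes were detected in a single tissue. Of the tested probes, 427 were detected on all 3 hyperglycemic tumors and on no hyperglycemic gland. Another 760 were detected on all 3 hyperglycemic glands and on no hyperglycemic tumor. Detection chose these probes, so how many of them were called is not given, nor is a p-value. For such genes the dim tissue has only a bound, so a fold is written as at least the bright mean over the higher of the array's lowest detected signal (5.19 to 5.38) and the probe's own value, averaged over arrays. Pip (chromosome 6), the prolactin-induced protein of secretory epithelia, read 11.68, 10.31 and 11.78 in tumors, against 4.75, 4.41 and 4.99 in glands, where it was not well above background. It was at least 63.9-fold higher in hyperglycemic tumors. The genes named here were chosen by their level in tumors, and the other bounds were far smaller. C2cd4a was at least 6.43-fold higher, the kallikrein Klk1b11, which has close copies, 6.18-fold and the glutamine transporter Slc38a3 6.15-fold. Prol1, a proline-rich protein of the lacrimal gland, was at least 5.60-fold higher. On the other side, Tmem182 was at background in tumors at 4.79, 4.97 and 4.62, against 8.76, 8.25 and 7.78 in glands, and was at least 7.58-fold lower in tumors. Paqr9 was at least 6.17-fold lower, the plasma paraoxonase Pon1 at least 6.0-fold and the luminal coregulator Cited1 at least 5.61-fold. Krtdap, a skin differentiation gene, was at least 6.04-fold lower in tumors, but its glands spread from 5.4 in gland 2 to 10.13 in gland 3. Its call, which detection favoured, was lost without gland 1 or without any 1 tumor.

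The 15 genes with the largest deficit in hyperglycemic tumors were also taken from called genes detected on all 6 arrays whose groups did not overlap. They were of several kinds too, and Lep was first. Lep (chromosome 6), the fat-cell hormone leptin, read 6.22, 8.04 and 6.66 in tumors, against 12.69, 11.99 and 11.23 in glands. The groups were far apart, and Lep was 31.9-fold lower in tumors (-5.00 ± 0.51, adjusted p = 0.000163). Dgat2 (chromosome 7), which catalyses the last step of triglyceride synthesis, read 8.80, 9.76 and 8.40 in tumors, against 13.66, 13.77 and 12.27 in glands, 19.0-fold lower (-4.25 ± 0.47, adjusted p = 0.000227). Fgf10 (chromosome 13), a growth factor that mammary stroma sends to epithelium, read 6.23, 6.37 and 5.90 in tumors, against 10.24, 10.02 and 9.78 in glands, 14.4-fold lower (-3.85 ± 0.17, adjusted p = 4.42e-05). Tumor 2 was the highest of the 3 tumors for Lep, Dgat2 and Fgf10. The lactate receptor Hcar1 (-3.86 ± 0.29), the lipid droplet protein Pnpla3 (-3.85 ± 0.38), the amine oxidase Aoc3 (-3.91 ± 0.31), gamma-synuclein or Sncg (-3.93 ± 0.30), the peroxisomal fatty acid transporter Abcd2 (-3.74 ± 0.22), the sulfotransferase Chst1 (-3.81 ± 0.28), the plasma protein Orm1 (-4.07 ± 0.54), Tmem45b (-4.39 ± 0.63), Glb1l2 (-4.26 ± 0.32) and 2610016A17Rik (-4.16 ± 0.22) were also lower. Amy2a5, an amylase with close copies that the probe may read as well, differed by -4.0 ± 0.35, and the fast muscle light chain Myl1 differed by -3.79 ± 0.72.

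Among genes detected on all 3 glands and only 1 or 2 tumors, also chosen after their values were seen, the imprinted gene Nnat (-4.25 ± 0.57), the neutral amino acid transporter Slc1a5 (-3.95 ± 0.37), the G protein subunit Gnai1 (-3.89 ± 0.21), the rodent insulin receptor substrate Irs3 (-3.84 ± 0.20) and the glycerol channel Aqp7 (-3.67 ± 0.34) had the largest deficits.

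**Figure D2:**
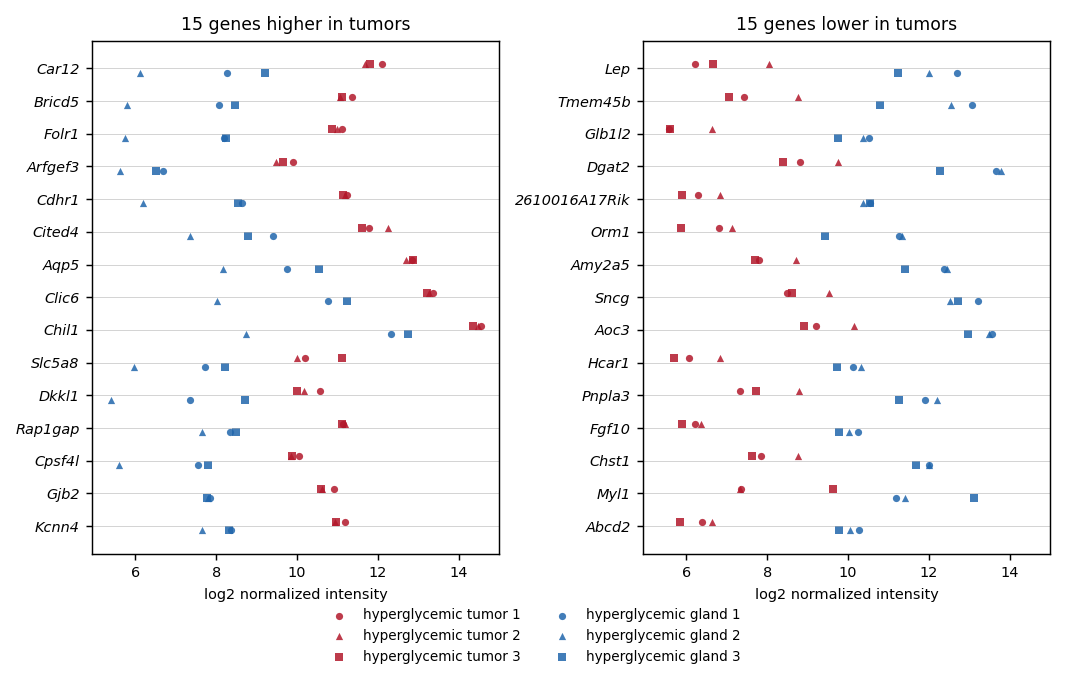
Level of the 15 genes with the largest excess (left) and the 15 with the largest deficit (right) in hyperglycemic tumors, as log2 normalized intensity. They were chosen among called genes detected on all 6 arrays whose groups did not overlap. Red marks are tumors and blue marks glands, with circle, triangle and square for samples 1, 2 and 3; gland 2 (blue triangle) lies left of the other glands for Car12, Folr1, Clic6 and Chil1, while the 3 glands coincide for Gjb2 at 7.77 to 7.85.

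Most luminal epithelial markers were higher in hyperglycemic tumors, while basal epithelial, adipocyte, fibroblast, endothelial and most lymphocyte markers were lower or did not pass the test. The members called in each list are read against the shares over all genes tested, 30.4% higher and 25.8% lower. In bulk tissue, fewer cells of a type and less RNA per cell cannot be told apart. All 14 tested adipocyte markers, of 16 on the array, were lower in hyperglycemic tumors, against 25.8% of all genes tested, with a median difference of -2.95. Their summed signal (linear scale) was 10246 to 19573 in tumors and 73005 to 90243 in glands, and the fat-cell hormone resistin (Retn) was the only one not detected in any tumor. Adiponectin (Adipoq) read 10.82, 11.12 and 10.19 in tumors, against 13.32, 13.31 and 13.20 in glands (-2.56 ± 0.22, adjusted p = 9.27e-05), so fat-cell transcripts remained well above background in the tumors. The lipid droplet coat protein Plin1 (-3.60 ± 0.28) and the glycerol channel Aqp7 (-3.67 ± 0.34), each detected on 2 tumors, and Pparg, the master regulator of fat cells (-3.55 ± 0.19), were also lower. Of 4 tested brown adipocyte markers, Cidea and Cox8b were lower and Ppargc1a and Cox7a1 did not pass the test. Cidea read 7.01, 7.19 and 6.59 in tumors, against 10.62, 11.98 and 7.07 in glands (-2.96 ± 1.07, adjusted p = 0.0474), and its call was lost without gland 1, without gland 2 or without any 1 tumor. The brown list summed to 12047 in gland 2, against 2346 and 4806 in the other glands.

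Luminal epithelial markers were higher for 9 of 12 tested members, against 30.4% of all genes, with a median of 1.52 and sums of 19077 to 21804 in tumors and 5555 to 8433 in glands. The claudin Cldn3 read 11.85, 11.72 and 11.89 in tumors, against 9.66, 9.11 and 9.63 in glands (2.35 ± 0.17, 5.10-fold), and Elf5, a transcription factor of alveolar cells, differed by 2.17 ± 0.24. Keratins Krt8 (1.59 ± 0.17) and Krt18 (1.62 ± 0.22) and the luminal factor Gata3 (1.73 ± 0.23) were higher as well. Of the other members, Foxa1 and Esr1 were lower. Foxa1, the pioneer factor of the estrogen receptor, read 6.31, 6.62 and 5.42 in tumors, against 9.36, 9.09 and 9.61 in glands (-3.24 ± 0.30, 9.43-fold lower, adjusted p = 0.000113). The estrogen receptor itself, Esr1, read 5.08, 4.78 and 5.34 in tumors, against 6.34, 6.07 and 6.20 in glands (-1.14 ± 0.16). It was detected on 1 tumor array. Krt19 had a difference of -0.41 ± 0.20 that did not pass the test. Basal and myoepithelial markers held no higher member and 6 lower of 8 tested (median -1.35, sums 10435 to 12887 in tumors and 22208 to 26401 in glands). The contractile genes Myh11 (-2.57 ± 0.16), Acta2 (-1.73 ± 0.16), Tagln (-1.49 ± 0.17) and Mylk (-1.44 ± 0.14), which vascular smooth muscle expresses too, led these. The basal factor Trp63 (0.33 ± 0.19) and the basal keratin Krt14 (0.29 ± 0.18) did not pass the test.

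Milk genes divided within the list, with 6 of 10 tested higher, 1 lower and 3 not past the test (median 1.54, sums 76511 to 91862 in tumors and 17496 to 55310 in glands). Wap, the whey acidic protein, read 11.98, 12.90 and 11.82 in tumors, against 9.89, 4.57 and 8.64 in glands (4.53 ± 1.19). Gland 2 was at background, so Wap entered the test through the tumors alone, and its call was lost without tumor 2. Alpha-lactalbumin, Lalba, read 9.15, 8.75 and 9.39 in tumors, against 6.5, 4.48 and 6.26 in glands, with gland 2 at background, so its difference of 3.35 ± 0.49 includes an undetected value. Lactoferrin, Ltf (2.50 ± 0.57), and the mucin Muc1 (2.20 ± 0.21) were higher too. Caseins spread too widely among the glands to be called: Csn2 read 11.28, 12.84 and 10.72 in tumors, against 13.29, 11.79 and 7.75 in glands (0.67 ± 1.29, adjusted p = 0.68), and Csn3 14.54, 14.54 and 14.47 in tumors, against 13.97, 11.57 and 14.03 in glands (1.33 ± 0.60, adjusted p = 0.0941). Glycam1, a milk mucin that lymph node vessels also make, was lower (-2.06 ± 0.34). Leaving out 1 array gave 3 to 7 higher members, the lowest count without tumor 2, and 4 without tumor 1 or 3.

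Skeletal muscle markers followed single samples. Alpha-actin, Acta1, read 6.87, 6.58 and 9.70 in tumors, against 10.11, 10.44 and 13.12 in glands (-3.51 ± 1.0, adjusted p = 0.0196), with tumor 3 and gland 3 the highest of their groups. The list summed to 784, 683 and 3310 in tumors, against 3759, 5553 and 37772 in glands. Of 10 tested members 7 were lower, but 1 was called without tumor 1 or without tumor 2, 5 without gland 3 and 9 without tumor 3 or without gland 1. Myoglobin, Mb, went against the rest at 7.49, 7.37 and 7.39 in tumors, against 6.02, 5.73 and 6.31 in glands (1.40 ± 0.15, adjusted p = 0.000239), with no sign of the peak that the other muscle genes had in gland 3. Of 3 tested skin markers, 1 was lower (2 without gland 2), Krt15 (-2.15 ± 0.23), and Krt10 read 8.82, 8.6 and 8.58 in tumors, against 11.40, 8.41 and 11.76 in glands (-1.86 ± 0.78, adjusted p = 0.0758).

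Every fibroblast and endothelial marker tested was lower in hyperglycemic tumors, and most pericyte markers were. All 12 fibroblast markers were lower, against 25.8% of all genes, with a median of -1.49 and sums of 10857 to 14226 in tumors and 34181 to 40644 in glands. Dpt, a matrix protein of the dermis and fat pad, differed by -2.71 ± 0.18, Pi16, a marker of adventitial fibroblasts, by -2.41 ± 0.25 and lumican, Lum, by -2.04 ± 0.14, while the collagen Col1a1 differed by -1.35 ± 0.20. All 9 tested endothelial markers were lower, also against 25.8% (median -1.67, sums 2229 to 3299 in tumors and 8229 to 10838 in glands). The tight junction gene Cldn5 read 8.19, 8.32 and 7.5 in tumors, against 10.43, 10.65 and 10.14 in glands (-2.40 ± 0.23, 5.30-fold lower). The angiopoietin receptor Tek (-2.16 ± 0.15), von Willebrand factor, Vwf (-2.22 ± 0.20), and Pecam1 (-1.86 ± 0.18) were alike in size. Of 6 pericyte and smooth muscle markers 5 were lower (median -1.31), led by desmin, Des (-2.49 ± 0.27), which skeletal muscle shares. Notch3 did not pass the test (-0.19, adjusted p = 0.402). Of 4 red blood cell genes, the globins Hba-a1 (-1.34 ± 0.33) and Hbb-bt (-1.28 ± 0.30) were lower, and Hbb-b2 (-0.75) and Alas2 (-0.68) did not pass the test. All 4 were lower without tumor 1 and after cyclic loess, and 3 without gland 3. Which of the near-identical globin genes these probes read is uncertain.

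Lymphocyte genes were among the lower groups with the largest medians. Of 6 T cell markers 5 were lower, against 25.8% of all genes (median -2.48), as were all 6 B cell markers (median -2.07) and all 5 tested leukocyte genes (median -1.69). The T cell receptor chain Cd3d read 7.78, 7.53 and 6.87 in tumors, against 9.87, 10.31 and 10.18 in glands (-2.73 ± 0.24, 6.63-fold lower, adjusted p = 9.56e-05), and the B cell receptor chain Cd79b differed by -2.53 ± 0.23. Cd8b1 was called higher on its main probe (0.58 ± 0.10) and lower on its other 2 probes, so its direction is uncertain. The B cell gene Ms4a1 was the only member not detected in any tumor. Macrophage markers were less uniform, with 5 of 9 lower and 1 higher (median -0.78). The scavenger receptors Cd163 (-1.71 ± 0.29) and Mrc1 (-1.60 ± 0.22) were lower, the complement genes C1qa, C1qb and C1qc did not pass the test, and the endotoxin coreceptor Cd14 was higher (1.36 ± 0.19). Without gland 2, 8 of the 9 were lower, and without tumor 3, 3 were; the median was -0.39 without gland 3. S100a8, a neutrophil protein, was higher at 10.89, 11.10 and 10.82 in tumors, against 9.48, 8.07 and 9.21 in glands (2.01 ± 0.33), while its partner S100a9 (-0.47 ± 0.48) and Elane (-0.67 ± 0.30) did not pass the test. Of 4 tested plasma cell markers, Derl3 (at least 3.05-fold) and Xbp1 (1.20 ± 0.17), which secretory epithelium uses too, were higher and Mzb1, which is made by B-lineage cells, was lower (-2.02 ± 0.30). The Schwann cell list was mixed: Sox10, also made by mammary epithelium, was higher at 12.78, 12.91 and 12.95 in tumors, against 11.06, 10.20 and 10.61 in glands (2.25 ± 0.21), and the myelin gene Pmp22 was lower (-2.06 ± 0.13).

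**Figure D3:**
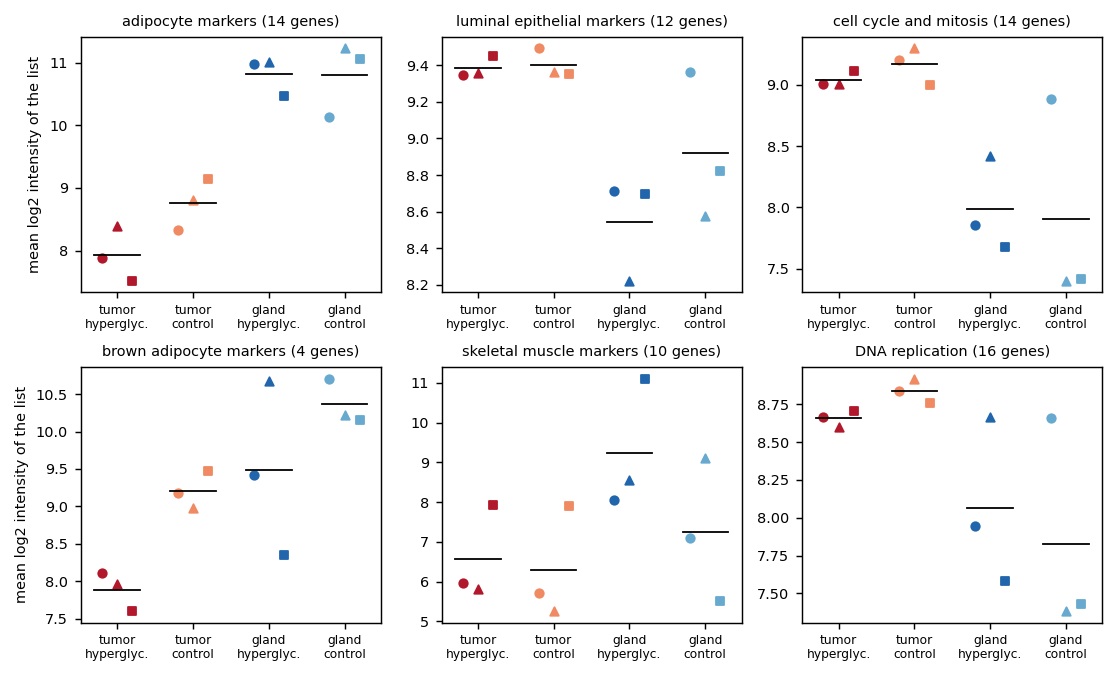
Mean level (log2 normalized intensity, vertical axis) of 6 gene lists on each of the 12 arrays, by group: hyperglycemic tumors, control tumors, hyperglycemic glands and control glands. Circle, triangle and square are samples 1, 2 and 3 and the black bar is the group mean; hyperglycemic gland 2 (triangle) is the highest gland of its group for brown adipocyte markers and DNA replication, and hyperglycemic gland 3 (square) for muscle.

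Mitotic genes were higher in the hyperglycemic tumors. Of 14 tested cell cycle genes 12 were higher, against 30.4% of all genes, and none lower (median 1.10, sums 12677 to 14331 in tumors and 6639 to 9776 in glands), with 9 to 12 higher when 1 array was left out and 10 after cyclic loess. Birc5, or survivin, of the chromosomal passenger complex, read 10.02, 10.00 and 10.71 in tumors, against 8.44, 8.96 and 8.12 in glands (1.74 ± 0.26, 3.33-fold, adjusted p = 0.00101). The mitotic kinase Plk1 (1.62 ± 0.21), the anaphase activator Cdc20 (1.54 ± 0.17), the kinase Cdk1 (1.29 ± 0.24), Aurka (1.23 ± 0.23) and Top2a (1.06 ± 0.29) were higher as well. Gland 2 was the highest gland for each of these. Cdkn1a, an inhibitor of the cycle, was among the higher members (0.71 ± 0.24, adjusted p = 0.0366), with its call lost without gland 1 or 2 and without tumor 2 or 3. The call of Top2a was lost without gland 1 and without tumor 1 or 3. The cyclins Ccne1 (0.42 ± 0.23) and Ccnd1 (0.10 ± 0.19) did not pass the test.

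Promoters of mitotic genes are known for a CCAAT box near a cell cycle homology region, where the NF-Y factor and the DREAM and B-Myb–MuvB complexes act. To show these elements beside the members that differed most, the 150 bases before the start of the 4 members with the largest difference are given, from RefSeq (GRCm38.p6), 5′ to 3′ on the gene's strand. Capitals mark a CCAAT box (the letters CCAAT, searched on both strands) and a cell cycle homology region (the letters TTTGAA, searched on both strands); neighbouring motifs can share bases. The windows lie at chr11:117849087-117849236 (plus strand, Birc5), chr7:122159285-122159434 (plus, Plk1), chr4:118437344-118437493 (minus, Cdc20) and chr10:69352913-69353062 (minus, Cdk1).
Birc5: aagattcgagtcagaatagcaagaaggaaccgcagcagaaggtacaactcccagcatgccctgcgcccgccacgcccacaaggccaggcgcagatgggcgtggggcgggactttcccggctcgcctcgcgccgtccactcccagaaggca
Plk1: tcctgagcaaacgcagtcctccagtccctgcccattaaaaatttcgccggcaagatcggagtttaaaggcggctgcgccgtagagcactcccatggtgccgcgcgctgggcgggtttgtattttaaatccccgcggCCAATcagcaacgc
Cdc20: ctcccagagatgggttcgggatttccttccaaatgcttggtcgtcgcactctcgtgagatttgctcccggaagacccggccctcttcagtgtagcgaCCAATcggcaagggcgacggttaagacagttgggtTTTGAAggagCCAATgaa
Cdk1: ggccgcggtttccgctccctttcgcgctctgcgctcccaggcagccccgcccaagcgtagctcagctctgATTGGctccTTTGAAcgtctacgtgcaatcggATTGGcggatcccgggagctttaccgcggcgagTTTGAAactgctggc

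The Birc5 window held neither set of letters, Plk1 held 1 CCAAT box, Cdc20 held 2 CCAAT boxes with 1 homology region, and Cdk1 2 of each. An entry was listed for 10 of the 12 called members, with 11 windows since Cdkn1a has 2; Aurkb and Foxm1 had none. A CCAAT box stood in 8 of the 11 windows (72.7%), a homology region in 4 (36.4%) and both in 4 (36.4%), against 24.5%, 9.07% and 2.24% of all 32851 windows of the same length. The list was made of mitotic genes, whose promoters are known for these elements, so a higher share than over all windows was built into it. Members that were not called were not compared. These matches describe letters in the window and were not tested as binding sites.

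For DNA replication genes the count turned on 1 gland. Of 16 tested members 6 were higher and none lower (median 0.52), a count near the 30.4% of all genes that were higher. Without gland 2, 15 were higher (median 0.84). There were 5 without tumor 1 or 2, 4 without gland 1 or 3 and 3 without tumor 3, with a median of 0.27 without gland 3. Ribonucleotide reductase subunit Rrm2 read 8.07, 8.16 and 7.95 in tumors, against 6.69, 7.55 and 6.14 in glands (1.27 ± 0.32, adjusted p = 0.011). The helicase subunit Mcm4 read 11.07, 11.06 and 10.97 in tumors, against 10.79, 11.43 and 10.64 in glands (0.08 ± 0.20, adjusted p = 0.76), with gland 2 above every tumor. The list summed to 9791 to 10311 in tumors, and to 10307 in gland 2, against 6378 and 5216 in glands 1 and 3. Thymidylate synthase, Tyms (1.03 ± 0.23), thymidine kinase, Tk1 (1.07 ± 0.35), and the flap nuclease Fen1 (0.88 ± 0.18) were also higher; the call of Tk1 was lost without gland 1 or 3 and without tumor 2 or 3.

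In sugar metabolism, 7 of 13 glycolysis genes were higher, against 30.4% of all genes, and 1 lower (median 0.48), and each array left out kept these counts. The glucose transporter Slc2a1 read 10.80, 10.71 and 11.21 in tumors, against 9.57, 9.60 and 9.61 in glands (1.31 ± 0.15, 2.48-fold, adjusted p = 0.000247). Hexokinase Hk1 (1.41 ± 0.19), the phosphofructokinases Pfkl (1.24 ± 0.19) and Pfkp (1.18 ± 0.17), the pyruvate kinase Pkm (0.79 ± 0.15) and the lactate dehydrogenase Ldha (0.70 ± 0.16) were higher, while Gapdh (0.04 ± 0.18), Aldoa (-0.13 ± 0.12) and Pgam1 (-0.01 ± 0.18) did not pass the test. The other transporter tested, Slc2a3, which leukocytes and neurons use, was lower at 6.37, 6.49 and 5.88 in tumors, against 8.15, 7.94 and 8.49 in glands (-1.94 ± 0.20), and the insulin-regulated transporter of fat and muscle, Slc2a4, differed by -3.01 ± 0.29. In the gluconeogenesis and glycerol list 5 of 7 were lower, against 25.8% of all genes, with 3 without tumor 3 and 4 without any 1 other array. Among them were pyruvate carboxylase, Pcx (-2.94 ± 0.41), and Pck1, not detected in any tumor (at least 1.61-fold lower). Fructose bisphosphatase Fbp1, detected on 1 gland, was higher (1.24 ± 0.21).

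Triglyceride storage genes were lower in hyperglycemic tumors, while synthesis genes were divided. Of 13 triglyceride storage and lipolysis genes 11 were lower (median -2.05), with Dgat2, Plin1, the droplet protein Plin4 (-3.22 ± 0.27) and hormone-sensitive lipase, Lipe (-2.97 ± 0.26), the largest. The lipase coactivator Abhd5 was higher (0.82 ± 0.13) and Plin2 did not pass the test (0.07 ± 0.21). Fatty acid synthesis was divided, 3 higher and 4 lower of 11 (median -0.61), near the shares over all genes (30.4% and 25.8%). Without gland 1, 2 were lower, and without gland 3, 8 were, with a median of -1.23. The regulator Srebf1 (1.30 ± 0.19) and the desaturases Scd2 (1.0 ± 0.22) and Fads2 (0.71 ± 0.21) were higher in tumors, and the glucose-sensing regulator Mlxipl (-2.72 ± 0.22), the carboxylase Acacb (-2.55 ± 0.41) and the desaturase Scd1 (-1.89 ± 0.50) lower. The call of Scd1 was lost without gland 1, and that of Fads2 without tumor 2 or 3. Gland 3 read lowest among the glands for most of these enzymes, as for the elongase Elovl6 at 9.30, 8.89 and 9.21 in tumors, against 11.20, 11.52 and 8.44 in glands (-1.25 ± 0.72, adjusted p = 0.175). Fatty acid oxidation had 7 lower members of 9, against 25.8% of all genes (median -0.88), led by the kinase Pdk4 (-2.66 ± 0.44), which restrains glucose oxidation. Oxidative phosphorylation had 6 lower of 14 (median -0.33), 1 after median scaling and 9 after cyclic loess, against 25.8% of all genes. It had 8 without gland 3, 3 without tumor 3, 2 without tumor 1 and 1 without gland 1, gland 2 or tumor 2. Of 8 cholesterol synthesis genes 4 were higher, against 30.4% of all genes, with 3 to 5 when 1 array was left out and 3 after cyclic loess. They included Dhcr7 (1.19 ± 0.14) and squalene epoxidase, Sqle (0.95 ± 0.17). The feedback regulator Insig1 was lower (-1.89 ± 0.33).

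Insulin and growth factor genes were mainly lower, 10 of 14 tested, against 25.8% of all genes, with 2 higher (median -1.08). With 1 array left out, 9 or 10 were lower and 0 to 2 higher. Among ligands, insulin-like growth factor 1, Igf1, read 8.23, 8.53 and 7.56 in tumors, against 10.94, 10.95 and 10.73 in glands (-2.77 ± 0.24, 6.8-fold lower, adjusted p = 8.83e-05), and Igf2 differed by -2.51 ± 0.15. Among receptors, the growth hormone receptor Ghr (-2.13 ± 0.11), Igf1r (-1.23 ± 0.14) and the insulin receptor Insr (-0.75 ± 0.12) were lower. Among the binding proteins that hold the ligands, Igfbp6 (-3.02 ± 0.35) and Igfbp4 (-1.49 ± 0.16) were lower, Igfbp2 was higher (1.01 ± 0.30) and Igfbp5 did not pass the test (0.43 ± 0.19). Downstream, the kinase Akt2 of fat and muscle, detected on 2 tumors, was lower (-2.0 ± 0.26) and the kinase subunit Pik3r1 higher (0.51 ± 0.17). The call of Pik3r1 was lost without gland 2 or 3 and without tumor 1 or 3, and that of Igfbp2 without gland 1 or 2 and without tumor 2 or 3.

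ErbB genes were higher for 5 of 8 tested members, against 30.4% of all genes, and lower for 2, or 1 without gland 1 and without tumor 1 or 3 (median 0.66, or -0.09 over members detected on all 6 arrays). Their summed signal went the other way, 1712 to 1765 in tumors and 2552 to 3271 in glands. Egf (at least 2.48-fold) and the receptor Erbb3 (at least 2.22-fold) were higher in tumors and not detected in any gland. They entered the test through the tumors alone, so detection favoured their direction in the count above. Hbegf, another higher member, was not detected on all 6 arrays either. Erbb2 read 8.43, 8.67 and 8.57 in tumors, against 7.75, 7.67 and 7.79 in glands (0.82 ± 0.11, 1.76-fold, adjusted p = 0.000619). The ligand Nrg4, which brown fat secretes, was lower (-3.65 ± 0.51), as was Egfr (-0.68 ± 0.20), whose call was lost without gland 1 and without tumor 1 or 3. Of 8 adaptors and kinases that bind middle T antigen or its partners, 2 were higher and 1 lower (median -0.02), below the shares over all genes (30.4% and 25.8%). Src was higher at 8.94, 8.42 and 8.89 in tumors, against 7.78, 7.43 and 7.60 in glands (1.15 ± 0.17, adjusted p = 0.000917), as was Pik3r1. Src's relative Fyn, not detected in any tumor, was at least 2.38-fold lower. Shc1 (0.03 ± 0.12), Gab1 (0.34 ± 0.13) and Pik3ca (-0.10 ± 0.17) did not pass the test.

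Of 10 Wnt and Notch genes 2 were higher and 4 lower (median -0.22), against 30.4% and 25.8% of all genes. The Notch target Hey1 was higher at 12.36, 12.12 and 12.59 in tumors, against 9.86, 8.79 and 10.25 in glands (2.72 ± 0.34, adjusted p = 0.000429). The receptor Notch1 was higher by 0.63 ± 0.19, a call lost without gland 3 and without tumor 1 or 3. Wnt4, the ligand that progesterone induces in the gland, was at least 4.30-fold lower and Wnt6 at least 2.21-fold lower, neither being detected in any tumor. The Wnt target Axin2 differed by -2.18 ± 0.18. The epithelial adhesion genes Cldn1 (2.30 ± 0.25), Ocln (2.09 ± 0.21, with 1 gland detected) and Cdh1 (1.48 ± 0.18) were higher, and 7 mesenchymal genes of the same list lower, among them Zeb1 (-2.32 ± 0.14), Zeb2 (-2.19 ± 0.14), Fn1 (-2.31 ± 0.22) and Vim (-1.89 ± 0.21). Fibroblast, endothelial and adipocyte markers, which were lower on every list, moved with these mesenchymal genes, and their part in the result was not tested. Of 16 matrix remodelling genes 10 were lower, against 25.8% of all genes (median -1.22), led by Nid1 (-2.44 ± 0.17). Another 2 were higher, the collagenase Mmp13 (7.11, 7.72 and 7.94 in tumors, against 6.09, 4.62 and 5.37 in glands, of which 2 were detected) and tenascin, Tnc (0.78 ± 0.21). The call of Tnc was lost without tumor 2 or 3. In the angiogenesis and hypoxia list 2 of 8 were higher and 3 lower (median -0.02), against 30.4% and 25.8% of all genes. Car9 (at least 3.37-fold) and Egln3 (2.30 ± 0.21), both targets of hypoxia-inducible factor, were higher. Vegfa (-1.52 ± 0.25), its receptor Flt1 (-1.85 ± 0.18) and Angpt2 (-1.52 ± 0.21) were lower.

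Antigen presentation and most chemokine genes were lower in hyperglycemic tumors. All 10 antigen presentation genes fell below the glands (median -0.83), the class II activator Ciita (-1.46 ± 0.16) and the immunoproteasome subunit Psmb9 (-1.34 ± 0.14) most; probes of the H2 genes may read close copies. Of 15 chemokines and cytokines 9 were lower, against 25.8% of all genes, including the lymphoid chemokines Cxcl13 (-2.32 ± 0.12), Ccl21a (-2.44 ± 0.21) and Ccl19 (-2.34 ± 0.28). Cxcl1 (0.94 ± 0.22) and Il1b (0.70 ± 0.23) were higher, the call of Il1b being lost without gland 1 or 2 and without tumor 1 or 3. These chemokine differences moved with the T and B cell lists above, whose part in them was not tested. Interferon-response genes spread widely within groups: Isg15 read 8.02, 9.03 and 9.52 in tumors, against 7.72, 7.61 and 9.96 in glands (0.42 ± 0.65, adjusted p = 0.602). Of 9 members only Gbp2 (-1.05 ± 0.17) and Cxcl10 (at least 1.43-fold) were called, both lower, while 2 were higher without gland 3. Cxcl10 was not detected in any tumor, so it entered the test through the glands alone. Of 12 glucose-responsive and oxidative stress genes 4 were higher and 5 lower (median -0.03), near the shares over all genes. The quinone reductase Nqo1 read 9.37, 9.16 and 9.43 in tumors, against 7.37, 6.51 and 7.11 in glands (2.33 ± 0.21, adjusted p = 0.000115), the arrestin Arrdc4 differed by 1.05 ± 0.20, and the secreted peroxidase Gpx3 by -2.37 ± 0.34. Txnip, whose transcription follows glucose, was high in both tissues at 13.64, 13.45 and 13.36 in tumors, against 13.90, 13.70 and 13.86 in glands (-0.33 ± 0.12, adjusted p = 0.0473), and its call was lost without gland 1 or 3 and without tumor 2 or 3. Housekeeping genes had a median of 0.03 (-0.11 after cyclic loess and 0.16 after median scaling), with 2 higher and 3 lower of 9, near the shares over all genes (30.4% and 25.8%). The lower count was 1 after median scaling, without gland 1 or 2 and without tumor 1 or 2, and 2 without gland 3 or tumor 3. The ribosomal gene Rpl13a differed by 1.08 ± 0.11 and Actb by -0.28 ± 0.10, a call lost without any 1 array.

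**Figure D4:**
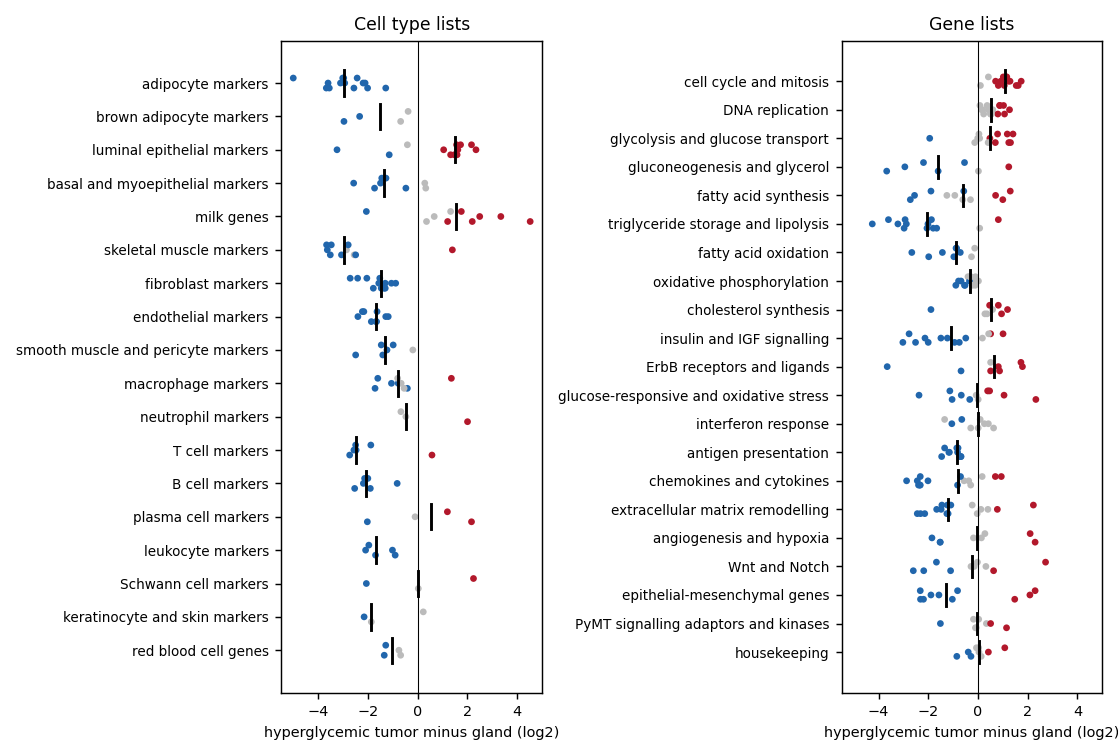
Difference between hyperglycemic tumors and hyperglycemic glands (horizontal axis, log2) for each tested member of the cell type lists (left) and the gene lists (right), 1 point per gene. Red points were called higher, blue points lower and grey points did not pass the threshold; the black bar is the list's median, for example -2.95 for adipocyte markers and 1.52 for luminal epithelial markers.

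The same probes were read in control tumors and control glands, arrays that the hyperglycemic comparison did not use. With all 6 control arrays, 1316 (7.27%) were higher and 1895 (10.5%) lower in control tumors. Without WT control-1, 5774 (31.9%) were higher and 4561 (25.2%) lower. Of the 5590 probes higher in hyperglycemic tumors, 98.1% had the same sign in controls without WT control-1 (98.2% with it), and 4430 were called higher there, which is 79.2% of the hyperglycemic list and 76.7% of the control list; 6 were called the other way. Of the 4275 lower probes, 98.8% had the same sign (98.2% with all 6 arrays) and 3721 were called lower, 87.0% of the hyperglycemic list and 81.6% of the control list, with 4 the other way. The 337 probes at least 4-fold higher had a median of 2.45 in hyperglycemic mice and of 1.94 in controls without WT control-1, or 1.44 with it; the 670 at least 4-fold lower had medians of -2.40, -2.17 and -1.81. Since the 4-fold probes were chosen by their size in hyperglycemic mice, a smaller median elsewhere is built into the choice. Of the 427 probes detected in hyperglycemic tumors alone, 317 were detected on all 3 control tumors, and 348 on neither WT control-2 nor WT control-3. Of the 760 detected in hyperglycemic glands alone, 630 were detected on WT control-2 and WT control-3, and 473 on no control tumor.

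Whether the tissue difference itself differed between hyperglycemic and control mice was tested as an interaction over 12 arrays and 18427 probes. No probe (0%) passed the threshold with limma, 1425 had an unadjusted p under 0.05, and the smallest adjusted p was 0.194. Without WT control-1 again none passed, with 1637 at an unadjusted p under 0.05 and a smallest adjusted p of 0.0761. With array weights 33 passed. The 95% interval of a probe's interaction reached a median of 1.40-fold to either side, so the test does not show that the tissue difference was alike in both kinds of mice. The calls turned on single glands: without hyperglycemic gland 2 only Krt10 passed (-3.26, adjusted p = 0.000129, against 0.632 with all 12 arrays), and without hyperglycemic gland 3 only Adamts18 (-2.19, adjusted p = 0.0453) and the unnamed probe ILMN_2455596 (-2.28, adjusted p = 0.0205) did. Adamts18, a secreted protease, read 6.03, 5.47 and 5.37 in hyperglycemic tumors, against 7.56, 7.43 and 6.86 in hyperglycemic glands, and 6.32, 6.57 and 6.51 in control tumors, against 6.27, 6.13 and 6.07 in control glands. Its hyperglycemic glands lay above all 9 other arrays. Pip read 9.51, 7.70 and 8.87 in control tumors, against 11.33, 8.78 and 6.24 in control glands (interaction 6.61, adjusted p = 0.395). Mup5 (7.24, 6.28 and 7.19 in control tumors, against 7.09, 9.72 and 5.2 in control glands) and 2310057J18Rik (12.69, 10.65 and 10.87 in control tumors, against 13.60, 11.77 and 9.92 in control glands) likewise did not separate the control tissues.

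Some of the lists were read again in the controls. DNA replication had a median of 0.52 in hyperglycemic mice, against 1.53 in controls without WT control-1, where all 16 members were higher, and 1.10 with it, where none was called. For the cell cycle list the medians were 1.10 in hyperglycemic mice and 1.93 in controls without WT control-1 (13 of 14 higher), or 1.40 with it (1 of 14 higher). Adipocyte markers had medians of -2.95 in hyperglycemic mice and -2.42 in controls without WT control-1, with all 14 lower in each. Luminal markers had medians of 1.52 and 1.27, with 9 of 12 higher in each. With WT control-1 the control median of adipocyte markers was -2.16, with 13 lower. That of luminal markers was 0.91, with 1 higher and 1 lower. Skeletal muscle had a median of -2.96 in hyperglycemic mice and -1.08 in controls without WT control-1, with 1 of 10 called lower there. With WT control-1 the control median was -1.02, again with 1 called lower. Skin markers had a median of -1.86 in hyperglycemic mice, with 1 of 3 called lower, and of 0.73 in controls without WT control-1, with all 3 called higher. With WT control-1 the control median was 0.53 and none was called. Basal markers had medians of -1.35 in hyperglycemic mice and -0.64 in controls without WT control-1, or -0.42 with it. Of 8 members, 0 were higher and 6 lower in hyperglycemic mice. In controls without WT control-1, 3 were higher and 4 lower, and with it 3 and 3. The differences between these medians were not tested.

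**Figure D5:**
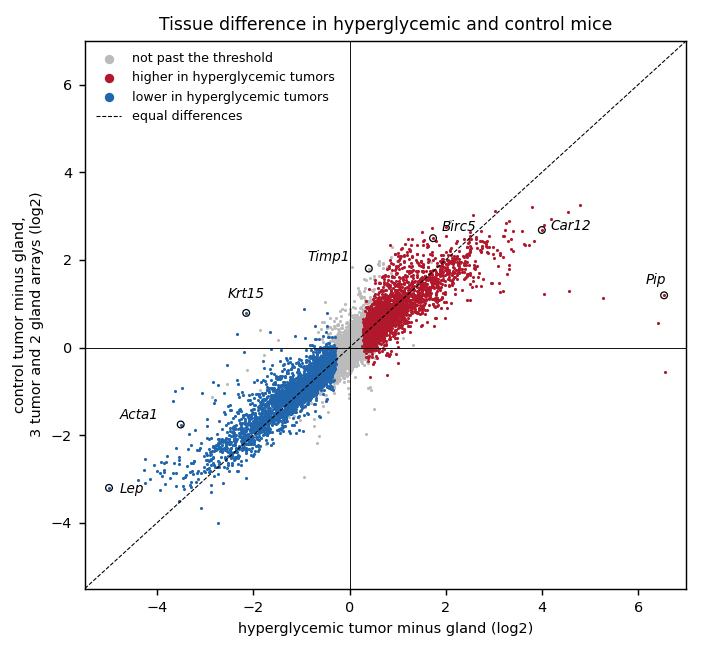
Tissue difference in control mice (vertical axis, log2, 3 control tumors minus control glands 2 and 3) against the tissue difference in hyperglycemic mice (horizontal axis, log2, 3 tumors minus 3 glands), 1 point per gene. Red and blue points were called higher and lower in hyperglycemic tumors and grey points were not called; the dashed line marks equal differences, Pip lies far to its right at 6.54 in hyperglycemic mice and 1.19 in controls, and Krt15 has opposite signs at -2.15 and 0.79.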

How the data were processed

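RNA of 12 samples was read on Illumina mouse BeadChips. The deposited intensity values are mean bead signals per probe on a linear scale, neither normalized nor logged, and come with a standard error over beads and a number of beads, per the file headers; GenomeStudio 2011.1 is named in the submitters' processing notes. The deposited detection p-value compares a probe with the negative-control probes of its array, per the file headers, and moves in steps that fit 936 controls. A second deposited table holds the authors' processed intensities, which share 1 distribution over all arrays; no source used here says how it was made, and it served as an alternative.

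Groups were taken from the sample labels. The 6 arrays were background corrected from the detection p-values, quantile normalized with an offset of 16 and logged with neqc, and compared with limma 3.58.1 (lmFit and eBayes, R 4.3.3; Python 3.11.15, pandas 2.3.3 and numpy 2.4.6 for tables), with 4 residual and 3.64 prior degrees of freedom. Adjusted p-values are limma's with Benjamini-Hochberg adjustment. The fit was tested on simulated data. The interaction and the control comparison used the same steps on the arrays they concern. The number of arrays limits the precision.

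A single symbol was listed for 34885 of 45281 probes, several for 18 and none for 10378; 34807 gene IDs matched RefSeq. Named genes were the 15 with the largest difference in each direction and up to 4 members per list, each on its probe with the highest mean. The 15 were chosen among called genes detected on all arrays of both groups whose groups did not overlap. Of the called genes detected in 1 tissue only, the 5 with the highest level in that tissue were named for each tissue. Further list members were added for their roles, after their values were seen. The members, the 18 cell type lists and the 21 gene lists were chosen with earlier results of these data known. Promoter windows come from RefSeq tables (GRCm38.p6). Whether equal sample numbers pair the samples is not known, and the main fit used no pairing. Deviations of same-numbered tumors and glands correlated at 0.0288, 0.0911 and 0.0621. Between unlike numbers the correlations ran from -0.0678 to 0.00129. All of these are small, and they do not settle the question.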

Additional observations from a re-analysis of the deposited data

How the results depend on the processing

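The comparison of hyperglycemic tumors with hyperglycemic glands was repeated under 19 alternatives. The number of probes past the threshold stayed within 1.5 times of 9865 in each, from 7765 when only probes detected on all 6 arrays were kept to 10991 with array weights, and from 8076 to 9451 with 1 array left out. Sizes moved with the treatment of background. At an offset of 50, 1034 probes were at least 2-fold higher, 185 at least 4-fold higher and 353 at least 4-fold lower. With the authors' processed values 189 were at least 4-fold higher and 361 at least 4-fold lower, and with no background correction 191 and 366. Of probes detected on all 6 arrays, 199 were at least 4-fold higher, since fewer probes were tested. With 1 array left out, 274 to 396 were at least 4-fold higher and 554 to 733 at least 4-fold lower.

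A fit with the sample number as a replicate block called 9186 probes, 5080 higher and 4106 lower, and 0 in the interaction. Whether the numbers pair the samples is not known. The interaction, 0 in the first fit, called 33 with array weights and 0 to 2 with 1 array left out. The control comparison, 3211 probes with its 6 arrays, called 7372 when fitted with all 12 arrays, 5300 with a replicate block added after seeing the data, and 0 to 10335 with 1 array left out: 10335 without WT control-1, 55 without control tumor 3 and 0 without each of the others. The cause was not tested.

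Of 230 named genes that were called, none turned its direction, and 34 lost their call under at least 1 alternative. Genes named without a call were not counted here. Of 39 list medians 22 moved by more than 1 SD. Among lists with most members called in the direction of the median, 1 turned its sign. This was ErbB receptors and ligands, at -0.09 over members detected on all 6 arrays, where fewer genes are tested. Medians of other lists changed sign too, such as housekeeping genes (0.03, and -0.11 after cyclic loess) and neutrophil markers (-0.47, and 0.09 without tumor 3). With 3 arrays a group, a 95% interval of 1.25-fold to either side limits what a missed threshold can say.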

Other observations

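WT control-1 detected 286 of the 427 probes that were found on all 3 hyperglycemic tumors and on no hyperglycemic gland, while 348 of these were found on neither WT control-2 nor WT control-3. Of 2118 called genes with another tested probe, 33 had one called in the opposite direction, so a small share of gene-level directions rests on the choice of probe. Timp1, an inhibitor of matrix proteases, differed by 0.40 between hyperglycemic tumors and glands (adjusted p = 0.169), in limma fits with Benjamini-Hochberg adjustment. Between control tumors and glands it differed by 1.80 without WT control-1 (adjusted p = 0.000451 in the same kind of fit) and by 1.30 with it (adjusted p = 0.0676). Timp1 was chosen after its values were seen, and the difference between the hyperglycemic and control values was not called in the interaction.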
